A study of Mus musculus with 6 samples.

Results

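The NRF2 oxidative stress response genes described here are 10 genes chosen by symbol: the transcription factor gene *Nfe2l2* (which encodes NRF2), its repressor *Keap1*, and 8 target genes, *Nqo1*, *Hmox1*, *Gclc*, *Gclm*, *Slc7a11*, *Gsr*, *Srxn1* and *Txnrd1*. All 10 were on the array, through 12 of the 55681 probes other than controls, and they stand beside the 20284 genes to which a symbol could be given. *Hmox1* and *Gsr* had 2 probes each and the others 1.

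In resting cells KEAP1 binds NRF2 and hands it to a CUL3 ubiquitin ligase, so that the factor is degraded as fast as it is made. Electrophiles and oxidants modify cysteines of KEAP1, NRF2 then accumulates, pairs with a small MAF protein and binds antioxidant response elements near its target genes. The liver, which receives ingested chemicals from the gut, is known for an inducible NRF2 response of this kind, and the amount of NRF2 is set mainly at the protein level, which these arrays do not measure.

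The study gave fluorene-9-bisphenol (BHPF), a bisphenol A substitute used in plastics, to immature female CD-1 mice, an outbred strain, and asked how gene expression in livers, ovaries and uteri differed from that of mice given the peanut oil vehicle. There were 6 groups: liver, ovary and uterus of control mice (peanut oil by daily gavage for 3 days), and the same tissues of mice given BHPF at 50 mg kg−1 body weight by daily gavage for 3 days. The labels give the age of all animals as 24 days. The methods place the first dose 3 days before that age, whereas a figure legend for these arrays places it at that age, and the conflict could not be settled. Each group was 1 pool of RNA from 3 mice on 1 one-colour Agilent array, so the spread between animals was not measured, no test was possible, and each difference below compares 1 pool with another.

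A level is the log2 intensity of a probe minus the 75th percentile of all probes on its array. It can be compared for 1 probe across arrays, but not between probes. A ratio is the level with BHPF minus the level in the control of the same tissue, so 1 on this log2 scale is 2-fold. Probes spotted several times on each array gave a standard deviation (SD) of 0.159, 0.152 and 0.158 for a liver, ovary and uterus ratio, which covers noise between spots only, and each member probe was a single spot. The share of all probes that the scanner software called well above background was 61.3 to 74.5% by array.

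The uterus labels carry a conflict. In the table of log2 values deposited beside the scanner files, the uterus column for control mice matched the BHPF scan and the uterus column for BHPF mice matched the control scan. The labels of the scanner files are followed below, and every uterus ratio takes the opposite sign where the headings of that table are followed. Of 8 ovary markers, 8 were well above background on both ovary arrays, and their summed linear level was 52.9 in control and 54.4 in BHPF ovary, against 6.84 and 6.37 in liver and 2.62 and 2.65 in uterus. Some were seen elsewhere (5 and 3 on the liver arrays, 6 and 5 on the uterus arrays), and *Foxl2* read higher in liver (1.27 and 1.43) than in ovary (0.71 and 0.73). Of 8 uterus markers, 8 were well above background on both uterus arrays, with sums of 24.6 and 24.0, against 2.91 and 2.56 in liver and 0.701 and 0.744 in ovary. The BHPF uterus array stood apart. All 10 liver markers (*Alb*, *Apoa1* and others) were at least 2-fold higher on it than on the control uterus array, with a median ratio of 4.02, and their summed linear level was 43.8 against 3.05, beside 399 on the control liver array. Neutrophil markers lay below 0 for 8 of 8 genes in the liver (median ratio -2.64, 7 at least 2-fold lower) and 7 of 7 in the ovary (-2.08, 5 at least 2-fold lower). In the uterus 6 of 7 did (4 at least 2-fold lower), with *Ltf* at 0.04. The 6 arrays shared 1 slide and 1 scan. Control and BHPF arrays occupied different places on it, and an effect of place cannot be told apart from one of BHPF.

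The antioxidant response element, the sequence through which NRF2 acts, is shown where it was found, because it is the feature that the target genes are known to share and the rule did not use. Promoters, from 250 bases before to 50 after the start of transcription, were available from RefSeq (GRCm38.p6) for 7 of the 10 members and gave 9 sequences. The core TGACNNNGC, searched on both strands, was present in 4 of the 9 (4 of 7 genes), against 12.4% of 32851 promoters of all genes. The related site TGANTCA, to which AP-1 and NRF2 partners also bind, was in 1 of the 9, against 7.81% of all promoters, and the longer form TGACTCAGC, which contains both, was in 0 of the 9, against 0.454%. The stretches before the start that hold these letters are printed in the direction of the gene, with the match in capitals. The names give the gene and the position of the first base of the match from the start.
Nfe2l2 at -240: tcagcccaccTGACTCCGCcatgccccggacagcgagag
Gclm at -134: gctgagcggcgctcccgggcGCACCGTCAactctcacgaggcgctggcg
Srxn1 at -102: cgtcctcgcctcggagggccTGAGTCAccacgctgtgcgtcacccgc
Srxn1 at -45: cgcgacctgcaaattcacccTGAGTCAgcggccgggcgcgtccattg
Txnrd1 at -92: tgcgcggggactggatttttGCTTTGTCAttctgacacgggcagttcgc

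The *Nfe2l2* stretch is chr2:75704875-75704913 on the minus strand, and the *Gclm* stretch is chr3:122245403-122245451 on the plus strand, where the core lies on the opposite strand to the gene. The *Srxn1* stretches are chr2:152105402-152105448 and chr2:152105459-152105505 on the plus strand, and hold TGANTCA. A match to TGACNNNGC lies 29 bases into the transcript of *Srxn1*. The *Txnrd1* stretch, from the second of 3 start sites in RefSeq, is chr10:82859094-82859142 on the plus strand with the core on the opposite strand. A match is a description of letters in these windows and says nothing of binding.

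No member differed by 2-fold between BHPF and control arrays, with 0 of 9 evaluated in the liver, 0 of 10 in the ovary and 0 of 10 in the uterus. Of all evaluated genes 4.74%, 1.09% and 3.09% did, so counts of 0 among so few members do not set them apart from all genes. The uterus count was 2 where the excess of liver markers on the BHPF uterus array was taken off at the share of those markers. At that share 1241 of 16173 genes passed 2-fold in the uterus. Of the genes past 2-fold in the liver 67.5% were higher with BHPF, a split that was 31.8% with the 50th percentile and 38.9% with quantile normalization as the scale. None reached 1.5-fold either, a size reached by 11.9% of genes in the liver, 3.49% in the ovary and 6.7% in the uterus. The median ratio of the members was 0.11 in the liver, 0.05 in the ovary and -0.06 in the uterus, against 0 (liver), 0.01 (ovary) and 0.00 (uterus) over all genes. Regardless of direction, the median size of a member's ratio was 0.26 in the liver, 0.13 in the ovary and 0.12 in the uterus, and that of all genes 0.17, 0.12 and 0.14. With 1 pool a group these counts describe these pools and do not show that the genes did not respond. In bulk tissue, fewer cells of a type and less RNA per cell cannot be told apart.

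**Figure D1:**
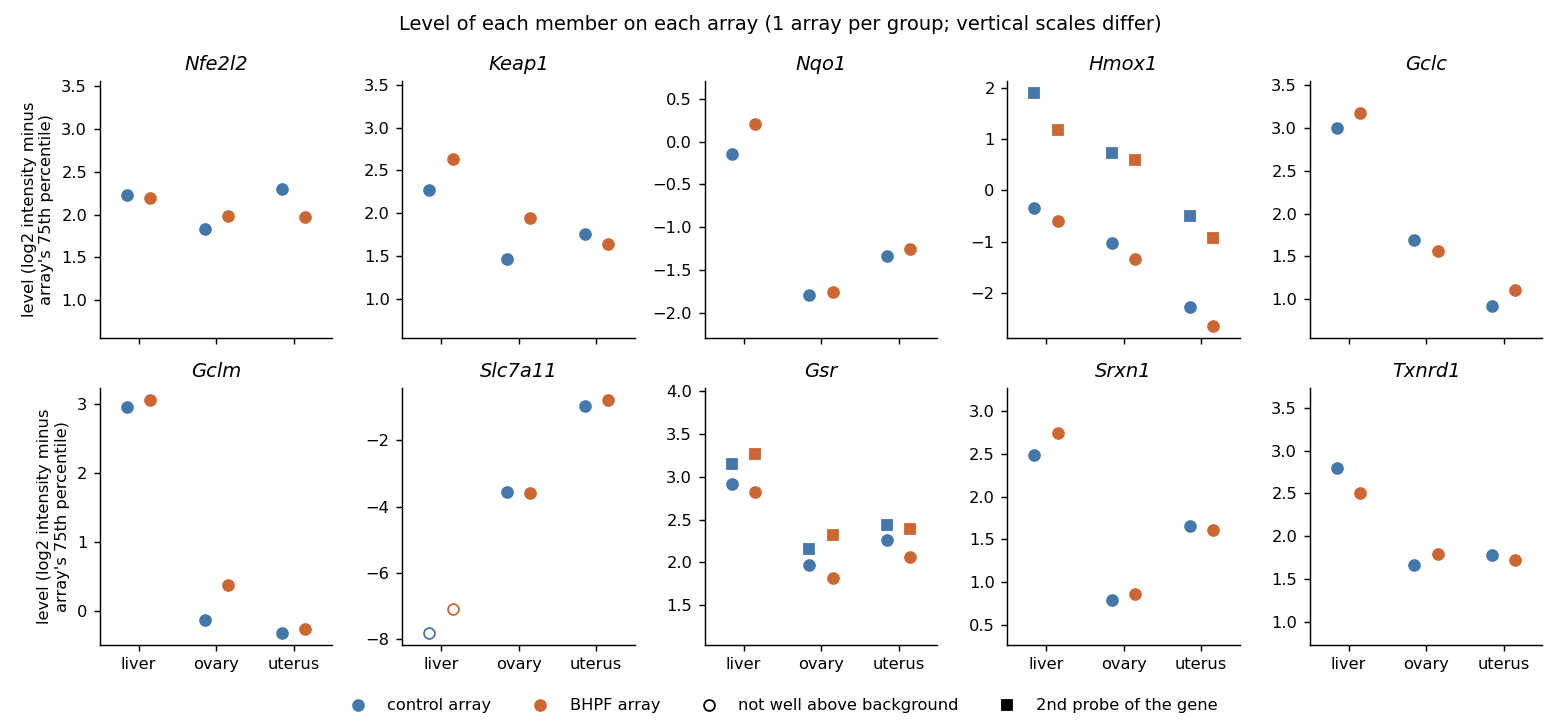
Level of each of the 10 genes on each of the 6 arrays (log2 intensity minus the array's 75th percentile; vertical scales differ between panels), with blue for control and orange for BHPF arrays, squares for a second probe and open circles for values not well above background. The 2 arrays of a tissue lie close together for most genes, whereas *Gclm* and *Slc7a11* differ by several log2 units between tissues.

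The regulators came first. *Nfe2l2* had levels of 2.23 in control and 2.19 in BHPF liver, 1.83 and 1.98 in ovary, and 2.29 and 1.97 in uterus. The ratios were -0.04 in the liver, 0.15 in the ovary and -0.32 in the uterus (0.801-fold), of which only the uterus value lay beyond 2 SD of spot noise (0.316). *Nfe2l2* was thus lower on the BHPF uterus array and about level in the liver, and its liver sign turned to 0.07 with another background correction (normexp).

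*Keap1*, the adaptor through which NRF2 is degraded, had levels of 2.27 and 2.63 (control, then BHPF) in the liver, 1.46 and 1.95 in the ovary, and 1.76 and 1.64 in the uterus. It was higher with BHPF in the liver (ratio 0.36, 1.29-fold) and the ovary (0.49, 1.40-fold), both beyond 2 SD of spot noise, and lower in the uterus (-0.12), within it. Under all alternatives tried the liver ratio stayed between 0.05 and 0.36 and the ovary ratio between 0.46 and 0.55.

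*Nqo1*, a quinone reductase widely used as a readout of NRF2 activity, had levels of -0.15 and 0.21 in the liver, -1.79 and -1.76 in the ovary, and -1.34 and -1.25 in the uterus. It was slightly higher with BHPF in the liver (0.35, 1.28-fold), beyond 2 SD of spot noise. The ovary (0.03) and uterus (0.09) ratios were within 1 SD. With the arrays scaled to their 50th percentile the liver ratio was 0.04.

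*Hmox1* encodes haem oxygenase 1, which splits haem into biliverdin, iron and carbon monoxide. Its first probe read -0.34 and -0.61 in the liver, -1.03 and -1.34 in the ovary, and -2.29 and -2.65 in the uterus. Its second probe read 1.90 and 1.18, 0.72 and 0.59, and -0.50 and -0.92 on the same arrays. Both probes were lower with BHPF in all 3 tissues, which was true of no other member. The probes gave -0.27 and -0.73 in the liver, -0.31 and -0.13 in the ovary, and -0.36 and -0.42 in the uterus, so the size of the liver difference depends on the probe. The means were -0.50 (0.708-fold), -0.22 (0.857-fold) and -0.39 (0.763-fold), and the liver and uterus means lay beyond 2 SD.

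Macrophages that clear red cells are a known source of *Hmox1*, and markers of macrophages went in both directions on these arrays. In the liver 6 of 9 macrophage markers were below 0, 2 of them at least 2-fold (*Marco* -1.85 and *Adgre1* -1.08). Above 0 were *Cd163* (1.27), which was dim in control liver (level -5.35), *Vsig4* (0.28) and *Clec4f* (0.22). In the ovary 5 of 8 were below 0, 2 of them at least 2-fold. In the uterus 5 of 8 were above 0, with *Clec4f* (1.21) and *Vsig4* (1.04) at least 2-fold higher. The summed linear level of the list was 65.1 in control and 53.4 in BHPF liver, 10.5 and 6.25 in the ovary, and 11.7 and 11.8 in the uterus. The part of these cells in the *Hmox1* values was not tested.

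*Gclc*, the catalytic subunit of glutamate-cysteine ligase, the rate-limiting enzyme of glutathione synthesis, had levels of 3.00 and 3.18 in the liver, 1.70 and 1.56 in the ovary, and 0.92 and 1.11 in the uterus. Its ratios were 0.18, -0.14 and 0.19, each within 2 SD of spot noise. *Gclm*, the modifier subunit of the same enzyme, had levels of 2.96 and 3.07 in the liver, -0.14 and 0.38 in the ovary, and -0.32 and -0.26 in the uterus. The ovary ratio of *Gclm*, 0.51 (1.43-fold), was the largest of any member in any tissue, and those in the liver (0.11) and uterus (0.06) were within 1 SD. By sign the paired subunits stood on opposite sides of 0 in the ovary, where *Gclc* was within 1 SD, and on the same side in the other tissues. The uterus signs were not stable: with the smallest share of liver signal taken off (below), *Gclm* was at -0.04 and *Gclc* at 0.15. With normexp the ovary ratio of *Gclm* was 0.80, the only ovary value of a member to pass 1.5-fold under any alternative, and that of *Gclc* turned to 0.10.

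*Slc7a11* encodes the light chain of the cystine-glutamate exchanger, which imports the cystine from which glutathione is made. It was not well above background on either liver array: its own signals read -7.82 and -7.11, under the dimmest signal that passed the call there (-5.62 and -4.91), and no ratio was formed. In the ovary it read -3.57 and -3.59, and in the uterus -0.96 and -0.77. The ratios were -0.02 in the ovary and 0.19 in the uterus, both within 2 SD of spot noise.

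*Gsr*, glutathione reductase, returns oxidized glutathione to its reduced form at the expense of NADPH. Its first probe read 2.91 and 2.83 in the liver, 1.97 and 1.81 in the ovary, and 2.26 and 2.07 in the uterus. Its second probe read 3.15 and 3.27, 2.16 and 2.32, and 2.44 and 2.39. The probes disagreed in sign in the liver (-0.08 and 0.12) and the ovary (-0.16 and 0.16), and both were below 0 in the uterus (-0.19 and -0.05), so *Gsr* had no direction in the first 2 tissues.

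*Srxn1*, sulfiredoxin, reduces peroxiredoxins that have been inactivated by peroxide. Its levels were 2.48 and 2.75 in the liver, 0.80 and 0.86 in the ovary, and 1.65 and 1.61 in the uterus, with ratios of 0.26 (1.20-fold), 0.06 and -0.05. *Txnrd1*, cytosolic thioredoxin reductase, had levels of 2.80 and 2.50 in the liver, 1.66 and 1.79 in the ovary, and 1.78 and 1.72 in the uterus. Its ratios were -0.30 (0.812-fold), 0.12 and -0.06. In the liver these thiol-reducing enzymes therefore lay on opposite sides of 0, both within 2 SD of spot noise, but this depended on the processing. With the 50th percentile as the scale both were below 0 (*Srxn1* -0.05, *Txnrd1* -0.62). With normexp they were at 0.45 and -0.52, both beyond 2 SD (0.318).

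**Figure D2:**
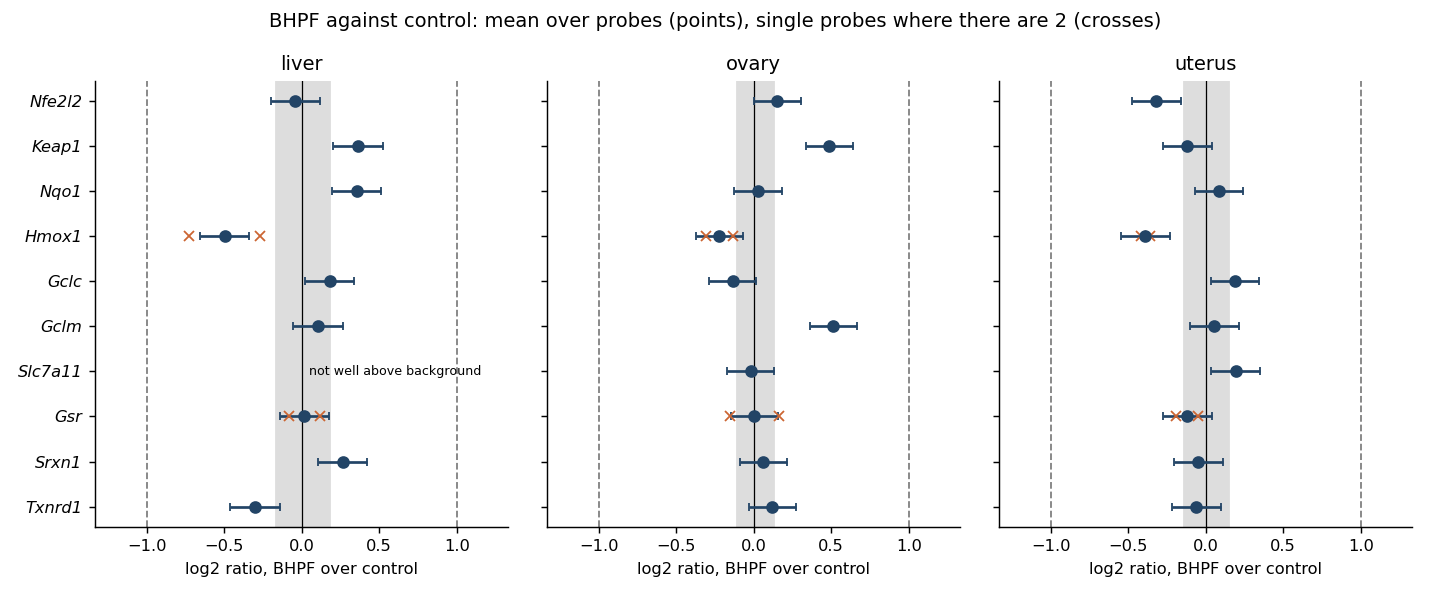
BHPF over control log2 ratio of each gene in the liver, ovary and uterus (points; bars are 1 SD of spot noise, which leaves out the spread between mice; crosses are single probes of *Hmox1* and *Gsr*). The grey band spans the first to the third quartile of all genes and dashed lines mark 2-fold: no point reaches them, and the largest sizes are *Gclm* and *Keap1* in the ovary (0.51 and 0.49) and *Hmox1* in the liver (-0.50). With the arrays scaled to their 50th percentile, the liver points lie further left and 2 of 9 are above 0 in place of 6. The uterus panel is mirrored where the headings of the deposited log2 table are followed.

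Over the members together, 6 of 9 ratios were above 0 in the liver, 7 of 10 in the ovary and 4 of 10 in the uterus. In the liver this split depended on the scaling: with the 50th percentile in place of the 75th, the median of all genes moved to -0.30, and 2 of 9 members were above 0. Ratios beyond 2 SD of spot noise were seen for 3 members in the liver (*Keap1*, *Nqo1*, *Hmox1*), 2 in the ovary (*Keap1*, *Gclm*) and 2 in the uterus (*Nfe2l2*, *Hmox1*), against 27.8%, 14.0% and 19.5% of all genes. Of the 29 ratios, 17 kept 1 sign under every alternative that follows the scanner labels of the uterus arrays. Under any of these 2 reached 2-fold, both in the uterus under the largest subtraction of liver signal. The others that passed 1.5-fold under some alternative were *Hmox1* and *Txnrd1* in the liver, at -0.81 and -0.62 with the 50th percentile, and *Gclm* in the ovary.

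Because liver markers were higher on the BHPF uterus array, the uterus ratios were also computed with a share of the control liver level taken off. Over 466 probes at least 64-fold brighter in control liver than in control ovary and uterus, the excess of the BHPF uterus array was a median of 0.657% of the liver level (quartiles 0.341 and 1.30%), and 0.969% over the 263 brightest in the liver. The same measure in the ovary was 0.0229%. With the 0.657% share removed, the uterus ratio of *Gclm* moved from 0.06 to -0.04, *Gclc* from 0.19 to 0.15 and *Hmox1* from -0.39 to -0.45. The other members moved by less, for example *Nfe2l2* to -0.33, and *Slc7a11*, not well above background in liver, stayed at 0.19. *Gclm* was the only member whose uterus sign turned with this step. This share leaves most of the liver marker signal in place: 9 of the 10 markers were still at least 2-fold higher afterwards, with a median ratio of 3.96 (*Alb* at 4.21 and *Apoa1* at 5.28).

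The markers' own excess was larger and uneven, from 0.41% to 15.6% of the control liver level over their 13 probes, and 10.2% for their summed levels. No single share therefore describes the liver signal. With 10.2% removed, 5 markers were at least 2-fold higher, 2 at least 2-fold lower and 2.49% of evaluated probes at or below 0. In each subtraction, signals at or below 0 were set to a floor, the lowest level well above background on that array (-5.07). At the 10.2% share 2 of 10 members were past 2-fold, *Gclm* at -4.37 and *Hmox1* at -1.83. Of all genes 1241 of 16173 were, 8.54% of them higher. *Gclc* was then at -0.50, *Nfe2l2* at -0.51 and *Slc7a11* at 0.19, and 9 of 10 were below 0, with a median of -0.41 beside -0.19 over all genes. By construction, the share assumed mattered most for the members with the largest excess of control liver over control uterus, *Gclm* (3.28), *Hmox1* (2.18) and *Gclc* (2.08). The sources of the liver signal were not tested.

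Between tissues the measured difference of a member reached 3.33, against at most 0.51 between BHPF and control within a tissue. The tissue comparisons share arrays with each other, so they are given side by side and are not separate evidence. Of the 10 members 9 were well above background on all 6 arrays, as were 67.6% of all genes. On the control arrays, 5 members were at least 2-fold higher in liver than in ovary (*Gclm*, *Srxn1*, *Nqo1*, *Gclc*, *Txnrd1*), where 21.6% of genes were, and 1 was lower (*Slc7a11*), where 22.7% were. Against the uterus, 5 were at least 2-fold higher in liver (*Gclm*, *Hmox1*, *Gclc*, *Nqo1*, *Txnrd1*; 20% of genes) and again only *Slc7a11* was lower (22.6%). Between ovary and uterus, *Hmox1* was higher in the ovary (11% of genes) and *Slc7a11* in the uterus (13.6%).

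*Gclm* had the widest measured range. Its level in control liver exceeded that in control ovary by 3.10 (8.57-fold) and that in control uterus by 3.28 (9.70-fold), and on the BHPF arrays by 2.69 and 3.33. *Gclc*, its partner, exceeded the ovary by 1.30 and the uterus by 2.08 on the control arrays. Liver thus stood highest for both subunits in both treatments, while *Gclm* in ovary and uterus differed by 0.18 on the control arrays, near the spot noise.

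*Slc7a11* ran the other way. The uterus exceeded the ovary by 2.61 (6.11-fold) on the control and 2.82 (7.08-fold) on the BHPF arrays. Against the liver, where it was not well above background, the uterus was at least 25.3-fold higher in control and at least 17.6-fold in BHPF mice, and the ovary at least 4.14-fold and 2.49-fold. These bounds use the lowest signal well above background on the liver array. The order uterus, ovary, liver was the same on both sets of arrays.

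*Hmox1* stepped down from liver to ovary to uterus, by 0.93 and 1.24 on the control arrays and by 0.66 and 1.41 on the BHPF arrays. *Nqo1* was highest in liver, by 1.64 over ovary and 1.19 over uterus in control mice, and *Srxn1* by 1.69 and 0.83. *Txnrd1* lay just past 2-fold on the control arrays (1.14 over ovary, 1.02 over uterus) and under it on the BHPF arrays (0.71 and 0.78). For all 3 the liver stood first on both sets of arrays, and for *Txnrd1* the ovary and uterus differed by 0.11, within the spot noise.

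On the control arrays the regulators had the narrowest ranges over the 3 tissues. *Nfe2l2* in control liver was 0.40 above ovary and 0.06 below uterus, the latter less than the spot noise, and *Keap1* was 0.81 above ovary and 0.51 above uterus. *Gsr* was 0.97 and 0.68 higher in liver, just under 2-fold against the ovary. The tissue counts rest on the scaling. With the 50th percentile, which moved the median of all genes to 0.47 (liver minus ovary) and 0.59 (liver minus uterus), 8 members were at least 2-fold higher in control liver than in each of the other tissues, and with the 75th percentile taken only over probes detected on every array, which moved it to -0.31 and -0.34, 3 were.

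**Figure D3:**
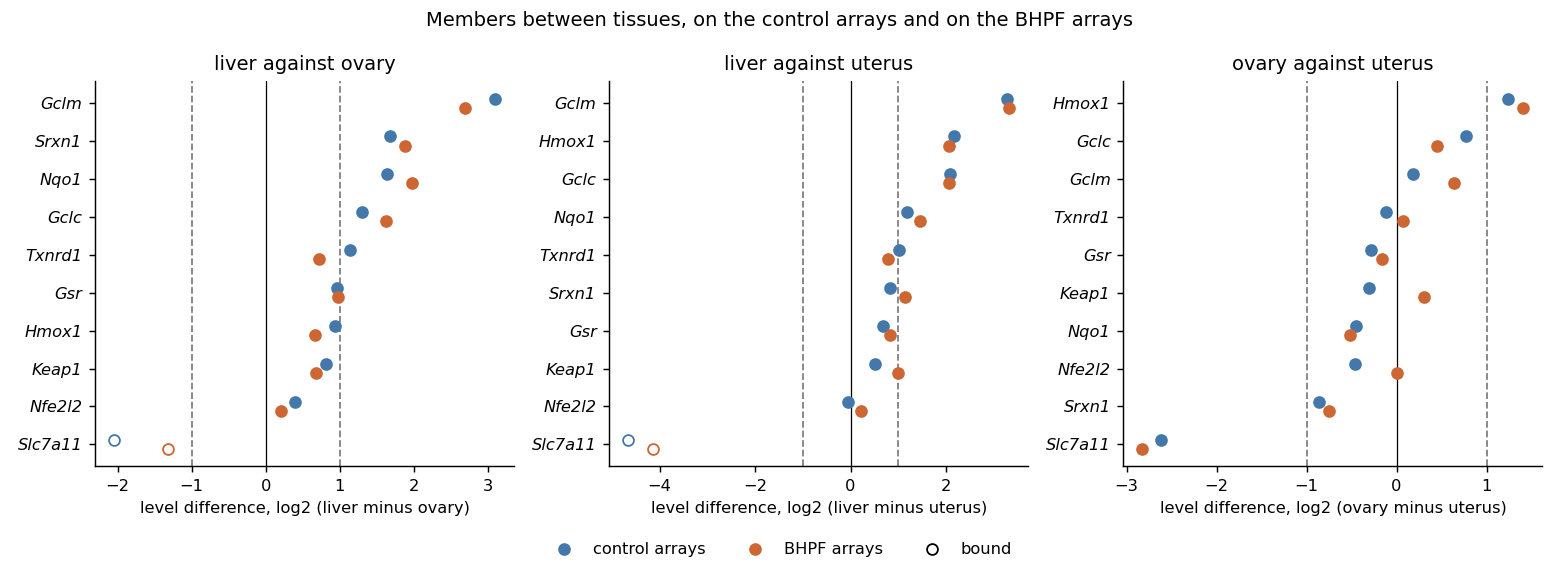
Level differences of each gene between pairs of tissues (log2), with blue for the control arrays and orange for the BHPF arrays, and open circles for bounds where the gene was not well above background in liver. Dashed lines mark 2-fold: *Gclm* lies furthest to the liver side (3.10 and 3.28 on the control arrays) and *Slc7a11* furthest to the other. With the 50th percentile as the scale, 8 members in place of 5 lie past 2-fold on the liver side on the control arrays.

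The rest of the NRF2 pathway was followed through a wider list of 57 regulators, partners and target genes, 56 of them on the array. In the liver 4 of 56 (7.14%) differed by 2-fold, 3 higher (3.2% of all genes) and 1 lower (1.54%). With the 50th percentile as the scale, 4 of 56 also did, but 0 were higher and 4 lower. In the ovary 0 of 55 did, where 0.474% of genes were higher and 0.617% lower. In the uterus 2 of 55 (3.64%) were higher (2.27% of genes) and 0 lower (0.823%). The medians were 0.13, 0.02 and 0.02, and 37 of 56, 31 of 55 and 28 of 55 genes were above 0.

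The liver genes past 2-fold were *Maff*, a small MAF protein that pairs with NRF2, and the alpha-class glutathione transferases *Gsta1* and *Gsta2*. *Maff* had levels of -1.35 in control and -0.27 in BHPF liver, a ratio of 1.09 (2.12-fold). *Gsta1* read -0.97 and 0.29 (ratio 1.26, 2.40-fold) and *Gsta2* -0.45 and 0.60 (1.05, 2.06-fold). The transferases are near-identical in sequence and their probes may share target RNA. All 3 were at most 0.49 in the other tissues, and with the 50th percentile their liver ratios were 0.77 (*Maff*), 0.95 (*Gsta1*) and 0.73 (*Gsta2*), under 2-fold, while the other alternatives left them past it.

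*Ggt1*, which breaks down extracellular glutathione, was lower in the liver: it read -3.57 in control, but its BHPF signal was too close to background to be called, which puts it at least 2.53-fold lower. With the 75th percentile, *G6pdx*, the first enzyme of the pentose phosphate pathway that supplies NADPH, was short of 2-fold at -0.96 in the liver, the lowest of its list, and *Txnip*, which binds thioredoxin, at 0.89. The multidrug transporters *Abcc4* and *Abcc1* were at 0.80 and -0.78, the highest and lowest of the detoxification and transport list. *Nfe2*, a haematopoietic relative of NRF2, was at -0.72, the lowest of the regulators and partners. With the 50th percentile *G6pdx* (-1.28), *Abcc1* (-1.09) and *Nfe2* (-1.04) were past 2-fold beside *Ggt1*.

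In the uterus the genes past 2-fold were the glutathione transferases *Gsta3* and *Gstm3*. *Gsta3* read -0.44 in control and 1.25 in BHPF uterus (ratio 1.68, 3.22-fold), beside 4.98 in control liver. The 2 probes of *Gstm3* disagreed, at 3.02 as a bound and 0.14, and their mean was 1.58. Control liver exceeded control uterus by 5.42 for *Gsta3* and, with a bound for 1 probe, by 5.18 for *Gstm3*. With liver RNA subtracted at the 0.657% share the ratios were 1.55 and 1.17, at the 0.969% share 1.49 and 0.85, and at the 10.2% share -4.63 and 0.25. At the 10.2% share *Gsta3* and a probe of *Gstm3* fell to 0 or below and were set to the floor. The last pair of values rests on that floor and was not measured. Of the wider list 6 of 55 genes passed 2-fold at this share, and all 6 were lower. Of all genes 1241 of 16173 passed it, 8.54% of them higher. With the headings of the deposited log2 table and no subtraction, *Gsta3* was at -1.68 and *Gstm3* at -1.78.

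**Figure D4:**
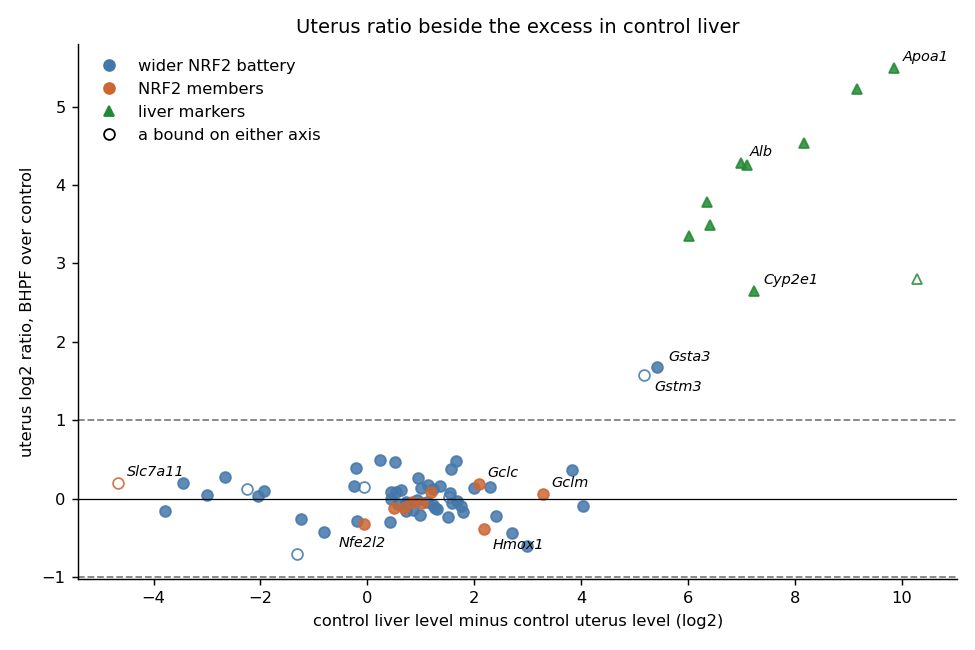
Uterus log2 ratio of BHPF over control (vertical axis) beside how much higher the same gene was in control liver than in control uterus (horizontal axis, log2), for the 10 members (orange), the wider list (blue) and liver markers (green triangles); open symbols are bounds on either axis and dashed lines mark 2-fold. The members lie between -0.39 and 0.19, *Gclm* with the largest liver excess (3.28) among them, and *Gsta3* and *Gstm3* lie between the members and the liver markers. All signs on the vertical axis turn where the headings of the deposited log2 table are followed.

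By role, the 12 regulators and partners had a median of 0.04 in the liver, -0.01 in the ovary and 0.04 in the uterus, with *Mafg* highest in the ovary (0.37) and *Bach1* lowest there (-0.08). The glutathione enzymes and transferases had medians of 0.16, 0.06 and 0.11, with *Mgst2* highest (0.30) and *Gsta2* lowest (-0.15) in the ovary. Of the NADPH-supplying enzymes, *Idh1* was highest in the liver (0.31) and lowest in the uterus (-0.43), and 5 of 6 were below 0 in the uterus, with a median of -0.21. Iron and haem genes stayed between -0.26 (*Blvra*) and 0.16 (*Blvrb*) in the liver, and *Fth1*, the ferritin heavy chain, was the highest in the ovary (0.28) and uterus (0.14). In the detoxification and transport list *Aldh3a1* was lowest in both ovary (-0.27) and uterus (-0.71, with a bound for 1 probe), and *Aox1* highest in both (0.06 and 0.47). In the thioredoxin and peroxiredoxin list *Txn1* was highest in the ovary (0.25) and lowest in the uterus (-0.16).

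A list of 16 antioxidant enzymes not chosen as NRF2 targets, such as superoxide dismutases and catalase, served as a comparison. None of the 16 differed by 2-fold in any tissue, and the medians were 0.10 in the liver, -0.04 in the ovary and -0.02 in the uterus. The liver extremes were *Sod3* (-0.49) and *Glrx* (0.39), those of the ovary *Prdx5* (-0.23) and *Gpx3* (0.44), and those of the uterus *Gpx3* (-0.24) and *Txn2* (0.22). The liver medians of the members (0.11), the wider list (0.13) and these enzymes (0.10) were alike in size.

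**Figure D5:**
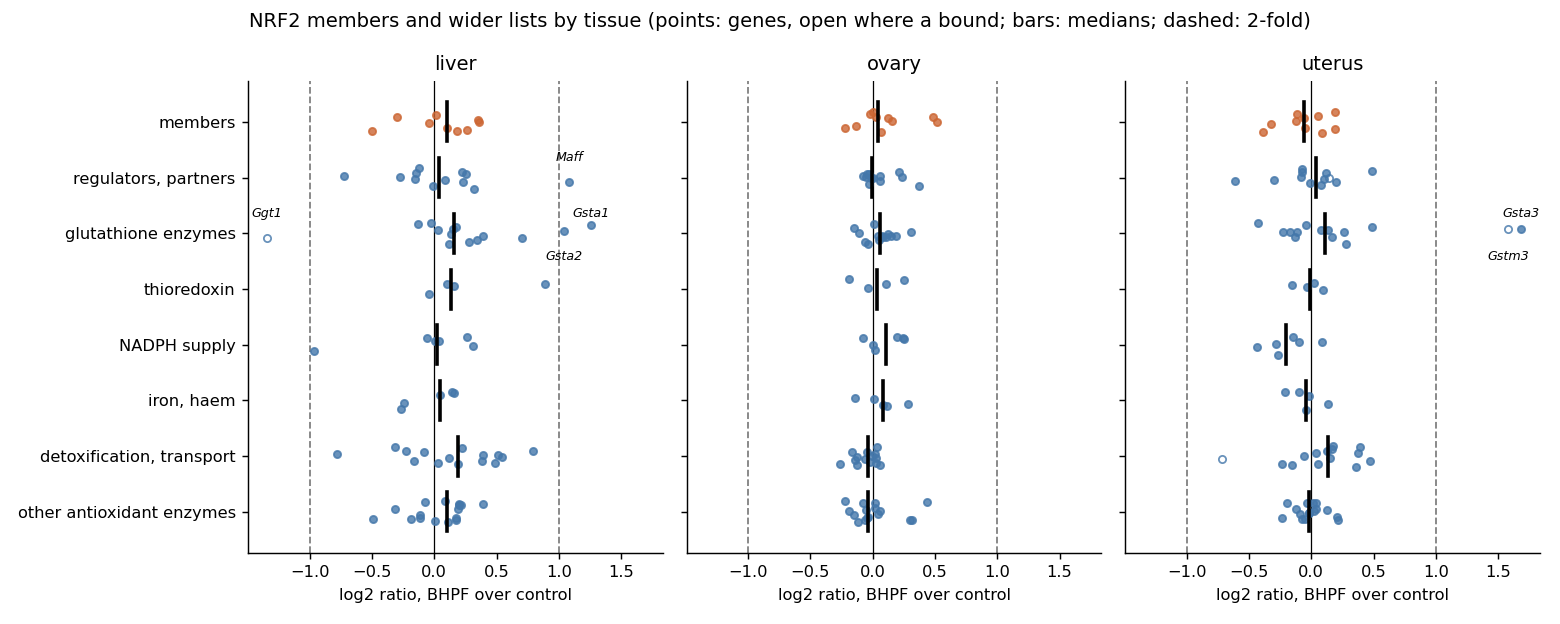
BHPF over control log2 ratio of every evaluated gene (points; open where the value is a bound) of the members, of the wider NRF2 lists by role and of the other antioxidant enzymes, in the 3 tissues, with the median of each list as a black bar and 2-fold as dashed lines. The genes past 2-fold are *Maff*, *Gsta1*, *Gsta2* and *Ggt1* in the liver and *Gsta3* and *Gstm3* in the uterus, and none in the ovary. With the 50th percentile as the scale *Maff*, *Gsta1* and *Gsta2* fall under 2-fold in the liver and *G6pdx*, *Abcc1* and *Nfe2* pass it on the lower side, and the uterus panel is mirrored where the headings of the deposited log2 table are followed.

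For each of the 9 members above background throughout, the gene with the most similar pattern was the one, among 13693 other genes, whose 6 levels, after removal of each gene's own mean, had the smallest root mean square (RMS) difference. These were *Rnf11* for *Gsr* (RMS 0.03), *Ube2z* for *Nfe2l2* (0.03), *Sirt3* for *Gclc* (0.04), *Zfp672* for *Txnrd1* (0.05), *Olfr1170* for *Nqo1* (0.06), *Tlcd2* for *Gclm* (0.07), *Wbp1* for *Keap1* (0.08), *Epb41l5* for *Srxn1* (0.09) and *Akr1c14* for *Hmox1* (0.12). Members were left out as candidates.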

How the data were processed

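RNA of each tissue, pooled from 3 mice per group, was labelled with Cy3 and hybridized to 6 one-colour arrays. Agilent Feature Extraction (9.1 per the labels, 11.5.1.1 per the file headers) gave the spot intensity that the authors deposited, with background subtracted, no normalization between arrays, and calls for background, saturation and outliers. The authors also deposited log2 values from GeneSpring, which matched the scanner values to within 0.001 after a constant per array. The column medians were -1.25 and -1.17 (liver control, BHPF), -1.66 and -1.64 (ovary), and -1.23 and -1.22 (uterus, by the scanner array matched), and the exact percentile of the shift was not given in the sources used here.

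Control and outlier spots were removed, log2 intensities of a probe were averaged, and each array was centred on its 75th percentile. A probe was evaluated if either array of a comparison had it well above background. If only 1 array did, the difference was taken to the dimmest signal that passed this call on the other, or to the probe's own signal where higher, and is a bound. Ratios of a gene's probes were averaged. Intensities at the 75th percentile were 3292 to 7500 and the lowest well above background 70.0 to 135; no member probe was saturated. Accessions were matched to RefSeq (GRCm38.p6), which named 26762 probes. Named genes were all members, every wider-list gene at least 2-fold changed and otherwise the highest and lowest of each list, and the gene of nearest pattern. The members, lists and markers were chosen with earlier results of these data known. Marker lists covered liver, ovary, uterus, neutrophil, macrophage, adipocyte and erythroid genes. Over the adipocyte list the median ratio was -0.20 in liver, 0.96 in ovary and -1.67 in uterus, and over the erythroid list -0.14, -0.35 and 0.62. Over the ovary markers it was 0.04 in the ovary, and over the uterus markers 0.02 in the uterus. Alternatives were the scaling, the background correction (normexp in limma, offset 50), the authors' table, the probe of a gene, the filter and bound for dim probes, 1.5-fold, and subtraction of liver RNA. Python 3.11.15, pandas 2.3.3, numpy 2.4.6, R 4.3.3 and limma 3.58.1 were used. The code was tested on simulated data.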

Additional observations from a re-analysis of the deposited data

How the results depend on the processing

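No paired analysis was possible because each group had 1 array, and for the same reason no array could be left out. The count of members past 2-fold was 0 in every tissue under every alternative run at that threshold but the subtraction of liver RNA at the share of the liver markers, which gave 2 in the uterus. The liver median of the members was -0.21 with the 50th percentile and 0.31 with normexp, and the uterus median was -0.13 with the 50th percentile, 0.057 with the deposited table as headed, 0.016 with normexp and -0.41 with the marker share subtracted. The 50th percentile moved the liver median of all genes to -0.30, and the table as headed exchanges the uterus arrays. For the other changes the cause was not tested. Of the wider list, 10 of 56 genes in the liver (6 higher, 4 lower) and 4 of 55 in the uterus (2 higher, 2 lower) passed 1.5-fold. Of all genes 11.9% in the liver and 6.7% in the uterus did. In the uterus 1 passed 2-fold with the brightest probe of a gene, with probes well above background on both arrays, or with the share of bright liver probes subtracted, and 6 with the marker share, both steps chosen after seeing the data. With the marker share 1241 of 16173 genes passed 2-fold in the uterus. As headed, the table gave -1.68 for *Gsta3* and -1.78 for *Gstm3* in the uterus, and the marker share gave -4.63 for *Gsta3*, a value set by the floor. On the control arrays, with scalings also chosen after seeing the data, 8 members were higher in liver than ovary with the 50th percentile and 3 with the percentile over probes above background, and the same 8 and 3 against the uterus. On the BHPF arrays 8 were higher in liver than uterus with the 50th percentile. Without a filter on dim probes 2097 genes were past 2-fold in the liver, 552 in the ovary and 944 in the uterus, in place of 736, 184 and 500, and with probes above background on both arrays 443, 124 and 280. With measured values in place of bounds the ovary count was 307. Of 135 alternative values of the main results 117 stayed near the reported value and 18 moved. Near means within 1.5-fold for a count, and within spot noise for a median or a ratio. Of 486 values of single genes 418 stayed within 1 SD of spot noise and 65 moved. The other 3 turned sign, which was counted only for ratios of at least 2-fold. Smaller ratios that turned sign are among those that stayed or moved. Of the 29 member ratios 17 kept 1 sign under every alternative that follows the scanner labels. Several alternatives cannot change a gene with 1 probe well above background on both arrays, so these counts do not measure how stable the values are. The arrays limit the precision to that of 1 pool a group, and *Slc7a11* was not well above background in liver.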
